A study of Mus musculus with 20 samples.

Results

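The genes described here are 9 genes of tryptophan catabolism, measured in bulk RNA of subcutaneous MC38 tumours in mice. They are Ido1, Ido2, Tdo2, Afmid, Kmo, Kynu, Haao, Il4i1 and Wars, matched by symbol, and all 9 had a row among the 23402 in the table. The set was chosen by the measured fall of Ido1 in the treated tumours, so the members' values in that contrast are given as a description. Whether a member passed a threshold is stated without its p-value, and is likewise only a description. Of the 9 genes, 6 had a mean of at least 0.5 FPKM over all libraries and entered the fit across genes. Ido2, Tdo2 and Il4i1 did not. FPKM is fragments per kilobase of transcript, scaled to the mapped fragments of the library, and so a level per length.

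Tryptophan is broken down mainly along the kynurenine pathway. Its first, rate-limiting step is opened by indoleamine 2,3-dioxygenase (Ido1 and its paralogue Ido2) or, chiefly in liver, by tryptophan 2,3-dioxygenase (Tdo2). In tumours, Ido1 is known as an interferon-gamma-inducible enzyme of tumour cells and of some dendritic cells and macrophages, where lower tryptophan and higher kynurenine restrain T cells. Kynurenine also activates the aryl hydrocarbon receptor, and tryptophan shortage activates the amino acid starvation kinase Gcn2.

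The study compared 10 Control tumours given vehicle with 10 tumours labelled P.T.ATBx, for peri-tumoral ATBx. The labels name no agent, dose, schedule, host strain or age, nor do they state whether libraries came from separate animals. The p-values therefore measure the spread between these libraries, which may in part be technical. MC38 is a mouse colon adenocarcinoma line, and the labels give the cell type as cancer cell, although the libraries held leukocyte genes as well.

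Library totals ranged from 556770 to 752782 summed FPKM, with 15527 to 16345 rows above 0. The steps between low values gave a relative depth of 0.818 to 1.26 between libraries. Read totals are unknown. The 4 libraries with the highest summed FPKM were Control 1, Control 3, P.T.ATBx 1 and P.T.ATBx 4.

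Ido1 was lower in the P.T.ATBx tumours, whereas the enzymes after it in the pathway differed between groups by less than the spread between libraries. Ido1 (chr8:24584133-24596952, RefSeq, GRCm38.p6, the assembly also called mm10) ranged in the Control libraries from 4.46 FPKM through a median of 6.29 to 15.9. In the P.T.ATBx libraries it ranged from 0.64 through 2.81 to 7.61 FPKM. The groups overlapped: 8 of the 10 treated libraries had less Ido1 than the lowest Control library, and 4 Control libraries had more than any treated one. The means were 8.34 ± 3.75 and 3.28 ± 1.96 FPKM (SD, n = 10 each), a ratio of 2.54. On the scale of log2(FPKM + 1), the difference was -1.16 (SE 0.254). In bulk tumour, fewer cells that make the transcript and less transcript per cell cannot be told apart. The spread of Ido1 between libraries was wide in both groups, with a coefficient of variation of 44.9% in Control and 59.9% in P.T.ATBx. Control 3 was the highest Control library, followed by Control 9 at 13.6 FPKM.

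Ido2, a paralogue with much weaker activity on tryptophan, lies next to Ido1 (chr8:24531892-24576414), with 7718 bases between the gene spans. Its level in Control libraries ran from 0.208 through a median of 0.447 to 0.705 FPKM. In P.T.ATBx libraries it ran from 0.0771 through 0.256 to 0.501 FPKM. The groups overlapped over most of their range, with 9 of 10 treated libraries under the Control median. In a fit without the filter on low values, the difference was -0.20 (SE 0.0723) and was not called at a Benjamini-Hochberg adjusted p of 0.05 in limma. In that fit 0.549% of rows passed an adjusted p of 0.05 and 11.4% an unadjusted p of 0.05. Control 3, the highest library for Ido1, was the lowest Control library for Ido2. In the treated group, P.T.ATBx 6 and P.T.ATBx 7 stood above the rest for both genes, and P.T.ATBx 2 was lowest for both. The relation between Ido1 and Ido2 was not tested.

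Tdo2 (chr3:81958412-81975728) was close to absent from the table. Its value was 0 in 6 libraries of the Control group and in 8 of the treated group. Control 3 had 0.307 FPKM, while the other Control libraries above 0 had 0.0305 to 0.0416 FPKM. The P.T.ATBx libraries above 0 were P.T.ATBx 4 at 0.036 and P.T.ATBx 6 at 0.0447 FPKM. Control 3 was thus the highest library for both Tdo2 and Ido1.

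**Figure D1:**
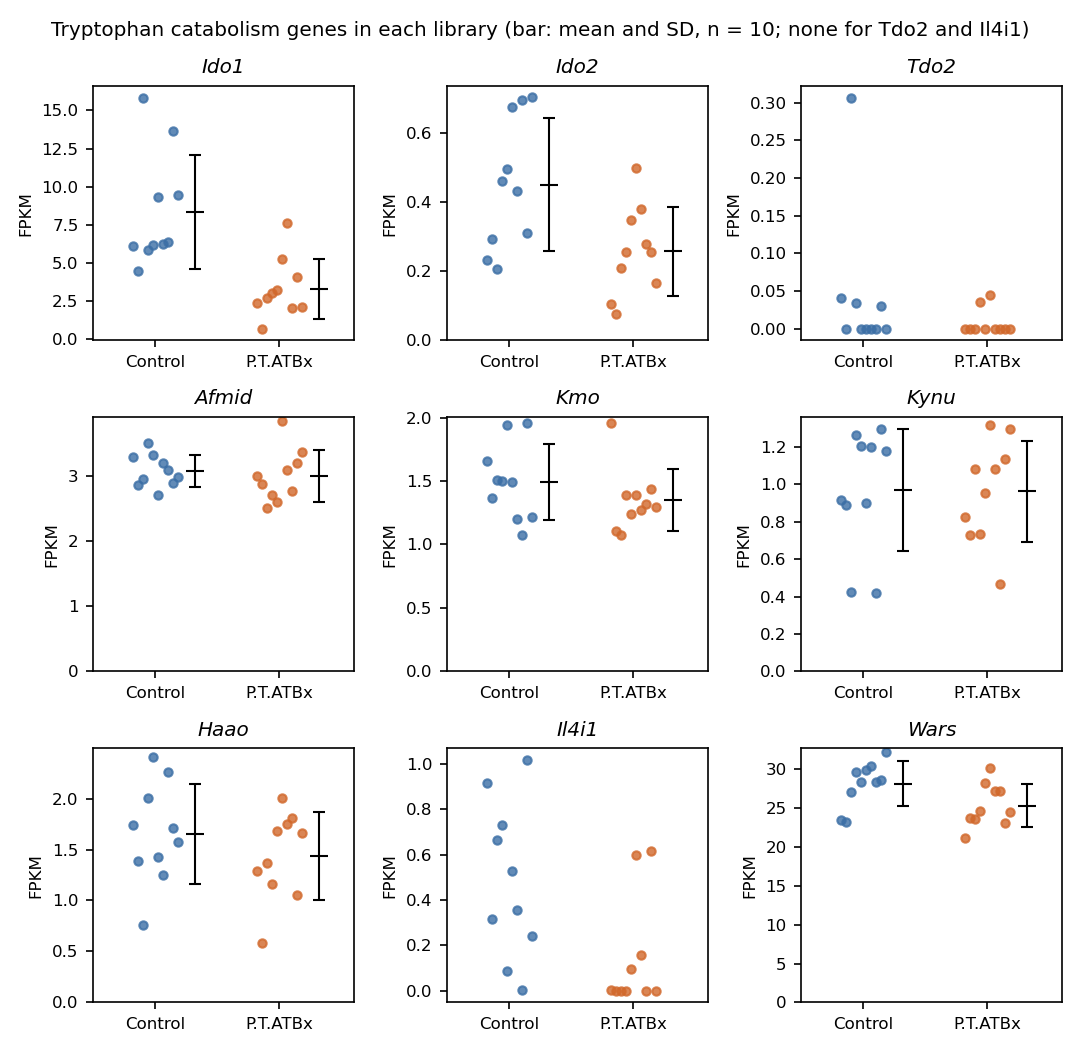
FPKM of the 9 tryptophan catabolism genes in each of the 10 Control and 10 P.T.ATBx libraries, 1 point per library, with the mean and SD as bars except for Tdo2 and Il4i1. Ido1 medians were 6.29 and 2.81 FPKM, while the points of Afmid, Kmo, Kynu and Haao covered much the same range in both groups.

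Past the first step, none of the enzymes tested was called at an adjusted p of 0.05. Afmid, the formamidase that turns N-formylkynurenine into kynurenine (chr11:117825503-117839908), had 2.71 to 3.52 FPKM in Control, with a median of 3.04. In P.T.ATBx it had 2.52 to 3.84 FPKM, with a median of 2.94. It was the steadiest of these enzymes, and the difference was -0.03 (SE 0.0551).

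Kmo, the monooxygenase that makes 3-hydroxykynurenine (chr1:175632193-175660853), had 1.07 to 1.96 FPKM in Control, with a median of 1.5. In P.T.ATBx it had 1.07 to 1.95 FPKM, with a median of 1.31. The ranges were nearly the same, although 9 of 10 treated libraries were under the Control median, with P.T.ATBx 1 far above the others. The difference was -0.08 (SE 0.0709).

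Kynu, the kynureninase that cleaves kynurenine and 3-hydroxykynurenine (chr2:43555258-43683048), had 0.417 to 1.29 FPKM in Control, with a median of 1.05. In P.T.ATBx it had 0.466 to 1.31 FPKM, with a median of 1.02. The group means, 0.968 ± 0.327 and 0.961 ± 0.272 FPKM (SD, n = 10 each), were closer to each other than the libraries within a group.

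Haao, the dioxygenase that makes the precursor of quinolinic acid (chr17:83831348-83848981), had 0.763 to 2.40 FPKM in Control, with a median of 1.64. In P.T.ATBx it had 0.583 to 2.00 FPKM, with a median of 1.51. The lowest Control library for Haao was again Control 3, and the lowest P.T.ATBx library was again P.T.ATBx 2. The difference was -0.12 (SE 0.117), about the size of its own error.

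Wars, the cytoplasmic tryptophanyl-tRNA synthetase, uses tryptophan for protein synthesis and is, like Ido1, known to be induced by interferon-gamma (chr12:108860030-108894175). It was the most abundant of the 9, with 23.2 to 32.1 FPKM and a median of 28.5 in Control. In P.T.ATBx it had 21.1 to 30.1 FPKM, with a median of 24.5. The groups overlapped, and 9 of 10 treated libraries were under the Control median. The difference was -0.15 (SE 0.0637), and Wars was not called.

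Il4i1 is a secreted amino acid oxidase of antigen-presenting cells that turns tryptophan and phenylalanine into keto acids. Its Control values ran from 0.00367 FPKM in Control 8 through a median of 0.441 to 1.02 in Control 9. Its P.T.ATBx values ran from 3.49e-15 FPKM in P.T.ATBx 4 through a median of 0.00103 to 0.617. Values under 0.01 FPKM occurred in 1 library of the Control group and 6 of the treated group, and the groups overlapped. Without the filter on low values the difference was -0.36 (SE 0.131), not called. These values are uncertain. GENCODE M21 starts Il4i1 at chr7:44816387 and lets it share 97 of its 4080 exonic bases with Nup62 (chr7:44816088-44830812) on the same strand. Under such an annotation, fragments could be split between these genes. The annotation the authors used is unknown, and the part of this overlap in the values was not tested. Values above 0 and under 0.001 FPKM occurred in 102 rows, 26 of them with a mean of at least 0.1 FPKM. Nup62, a nuclear pore gene, had 28.7 ± 1.40 and 29.4 ± 1.59 FPKM (SD, n = 10 each).

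RefSeq (GRCm38.p6) starts Il4i1 further downstream and gives its span as chr7:44836288-44840809. The 250 bases before that start, on the plus strand at chr7:44836038-44836287, are shown because they precede a start that lies beyond the end of Nup62. No capitals are used, since neither motif named next was found in them.
Il4i1 upstream: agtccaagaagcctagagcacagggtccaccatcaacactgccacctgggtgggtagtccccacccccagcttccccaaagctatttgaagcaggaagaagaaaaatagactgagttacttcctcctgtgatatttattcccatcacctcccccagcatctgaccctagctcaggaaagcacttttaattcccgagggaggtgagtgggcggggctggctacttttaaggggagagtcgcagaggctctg
Windows from 250 bases before to 50 after a RefSeq start were on hand for Tdo2, Afmid, Kmo, Haao and Il4i1. Those of Afmid (chr11:117825669-117825968) and Haao (chr17:83846741-83847040, minus strand) lie inside the gene spans given above. For these genes the outer start of the span was not searched. None of the 5 windows held GAAA, NN and GAAA in a row, a core of the interferon-stimulated response element, or TTCNNNGAA, the gamma-activated site, on either strand. Of 32851 such windows, 3.44% held the first and 8.3% the second. No match says only that these letters are not in this window. Ido1, Ido2, Kynu and Wars had no entry.

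In order of mean FPKM in Control, the genes stood as Wars, Ido1, Afmid, Haao, Kmo, Kynu, Il4i1, Ido2 and Tdo2. Ido1 was above Afmid in 10 of 10 Control libraries and in 6 of 10 treated ones. It was above Kmo in 10 Control and 9 treated libraries. Further down, Afmid exceeded Haao in 10 Control and 10 treated libraries, and Kmo exceeded Kynu in 10 and 9. Other neighbours crossed more often: Haao exceeded Kmo in 7 Control and 6 treated libraries, and Ido2 exceeded Il4i1 in 5 and 8. Leaving Tdo2 and Il4i1 aside, P.T.ATBx 6 was the highest library of its group for 5 of the 7 genes, namely Ido2, Afmid, Kynu, Haao and Wars. P.T.ATBx 2 was the lowest for Ido1, Ido2 and Haao.

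Of the 6 members tested, 1 was called lower in P.T.ATBx (Ido1) and 0 were called higher, in limma with Benjamini-Hochberg adjustment over all 12788 rows tested. Over all rows, 0.845% were called, 0.383% lower and 0.461% higher. Since Ido1 was picked for this contrast, nothing is read from that count. At an unadjusted p under 0.05, 2 members (Ido1 and Wars) were counted, both lower, against 13.6% of all rows, 6.08% lower. The members' median difference was -0.10, and that of all rows was 0.00. The call of Ido1 was lost after rescaling to TPM, which makes every library sum to the same total (difference -1.27), and without the 4 libraries of highest summed FPKM (difference -1.06). Leaving out any 1 of 7 libraries also ended it (Control 6, 9 and 10, and P.T.ATBx 1, 3, 4 and 10).

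The rest of the pathway was read through 5 lists of genes, and none of their 52 tested genes was called. Other enzymes that handle tryptophan and its products (12 of 21 tested) had 5 positive and 7 negative differences, with a median of -0.04. Maoa, a monoamine oxidase that degrades serotonin, had 12.2 ± 0.769 FPKM in Control tumours and 14.0 ± 1.86 in treated ones (SD, n = 10 each; adjusted p = 0.164). Ccbl2, a kynurenine aminotransferase that makes kynurenic acid, had 6.61 ± 0.61 and 7.40 ± 0.533 FPKM (adjusted p = 0.168), and all 10 treated libraries were at or above the Control median. Transporters of tryptophan and kynurenine (6 of 8 tested) had 3 differences in each direction. Slc36a4, a high-affinity tryptophan carrier, had 3.54 ± 0.51 and 4.16 ± 0.415 FPKM (adjusted p = 0.176). Slc16a10, an aromatic amino acid carrier, had 6.62 ± 0.514 and 7.21 ± 0.427 FPKM (adjusted p = 0.254).

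Readouts downstream of the pathway's products did not pass the test either. Of the aryl hydrocarbon receptor list, 6 of 9 genes were tested, with 4 positive and 2 negative differences and a lowest adjusted p of 0.45. That was Nqo1, a quinone reductase, with means of 1.83 ± 0.538 and 2.15 ± 0.322 FPKM. Cyp1a1, the receptor's classic target, lay under the filter. The 7 amino acid starvation genes, all tested, had 4 positive and 3 negative differences, with a lowest adjusted p of 0.666 for Chac1, a glutathione-degrading enzyme.

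Of the known inducers and regulators of Ido1, none passed the test. Of 21 tested, 17 had a negative and 4 a positive difference, with a median of -0.09, against 48.5% negative over all rows. Socs1, a feedback inhibitor of interferon signalling, had means of 13.3 ± 2.88 and 10.0 ± 1.67 FPKM, a difference of -0.37 (adjusted p = 0.116). All 10 of its treated libraries were under the Control median, 2 were under the lowest Control library, and 5 Control libraries were above every treated one. Tnf had means of 7.97 ± 2.20 and 5.76 ± 0.98 FPKM, a difference of -0.38 (adjusted p = 0.193). Its 10 treated libraries were all under the Control median, and 7 Control libraries were above every treated one. Ifng, the main inducer of Ido1, had 0.765 to 5.21 FPKM in Control, with a median of 2.65. In P.T.ATBx it had 0.70 to 2.94 FPKM, with a median of 1.70. The groups overlapped, and the difference was -0.42 (adjusted p = 0.349). Irf1, a transcription factor that acts on the Ido1 promoter, had a difference of -0.14 (adjusted p = 0.587).

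**Figure D2:**
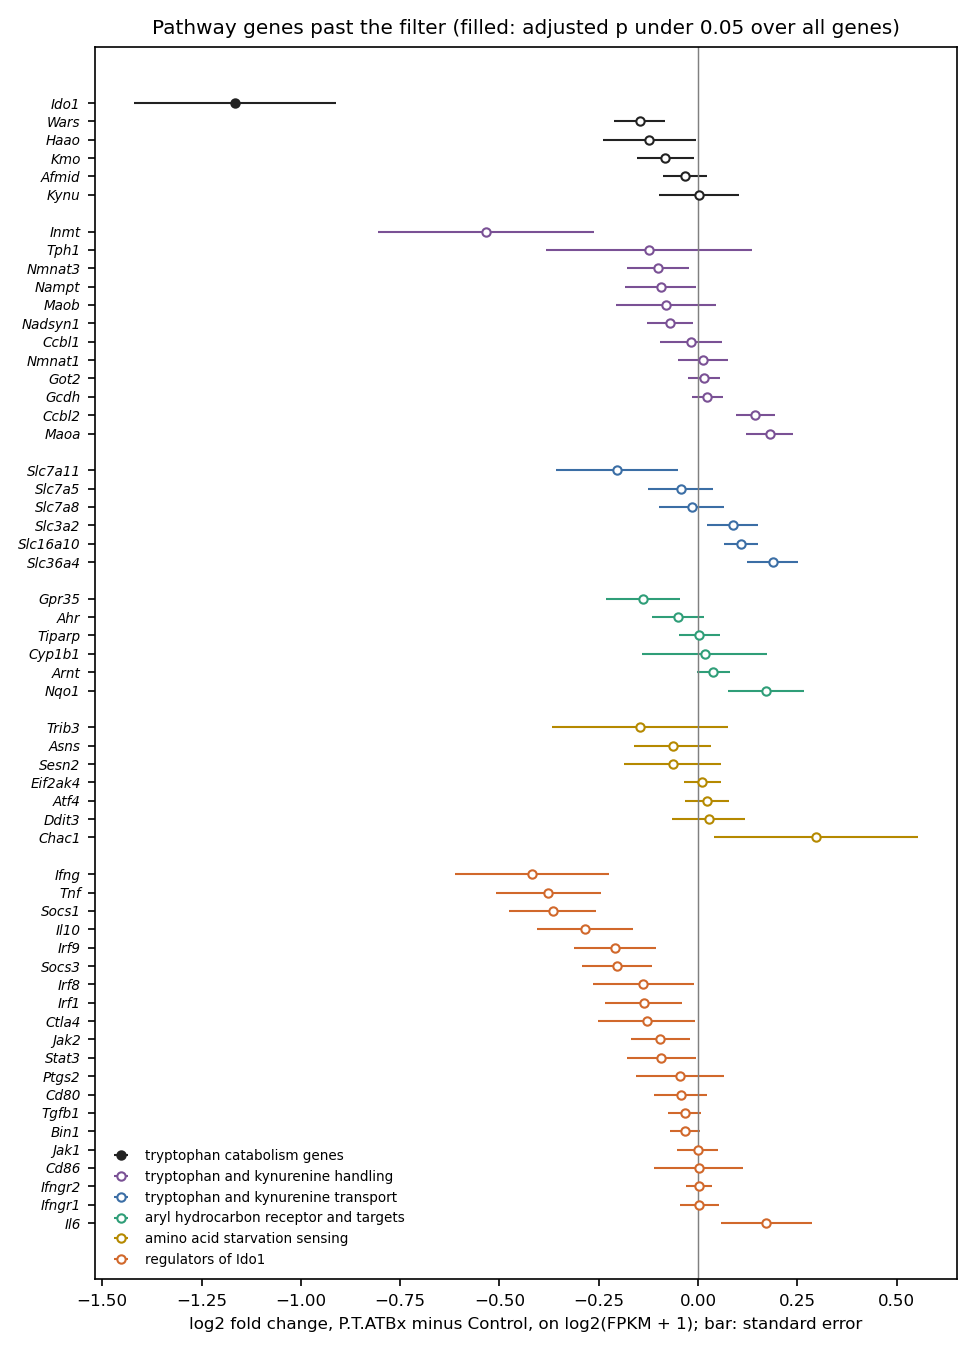
Difference between P.T.ATBx and Control on the log2(FPKM + 1) scale, with its SE, for tested genes of the tryptophan catabolism set and of the 5 pathway lists (10 libraries in each group). Ido1, chosen for its fall in this contrast, lies at -1.16, and the genes of the lists are spread on both sides of 0. Adding 1 FPKM shrinks the differences of low genes. Inmt, of the enzyme list, lies at -0.53 (adjusted p = 0.401, limma). Its means were 1.56 ± 1.71 FPKM in Control and 0.534 ± 0.345 FPKM in P.T.ATBx (SD). The highest Control value, 5.7 FPKM, was in Control 3.

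Marker genes of cells that could hold these transcripts were summed per library, and no marker list had a called gene. The epithelial list (Epcam, Cdh1 and 3 keratins) ran from 4.06 through a median of 37.5 to 178 summed FPKM in Control and from 11.9 through 22.7 to 52.9 in P.T.ATBx. Its 5 differences were all negative, 8 of 10 treated libraries were under the Control median, and its highest Control library was Control 3, also the highest for Ido1. The T cell list (4 of 5 genes in the table) ran from 8.8 through 13.5 to 23.1 summed FPKM in Control and from 5.98 through 11.3 to 19.4 in P.T.ATBx. The macrophage list (5 of 6 genes) ran from 580 through 767 to 836 and from 535 through 713 to 835. Most of that sum was C1qa, with means of 559 and 530 FPKM. The list had 3 positive and 2 negative differences, and Cd68 was above the Control median in 9 of 10 treated libraries (adjusted p = 0.129 in limma). The conventional dendritic cell list (7 of 7 genes, Xcr1 under the filter, most of the sum being Itgax) ran from 28.2 through 49.0 to 66.0 and from 23.3 through 48.9 to 53.4. Its tested genes had 1 positive and 5 negative differences. The migratory dendritic cell list (4 of 4 genes, most of the sum being Fscn1) ran from 141 through 153 to 167 and from 139 through 150 to 173. Its 4 differences were all negative, with Ccl22, a chemokine that attracts regulatory T cells, at 5.58 ± 1.01 and 4.17 ± 0.72 FPKM (SD, n = 10 each; adjusted p = 0.0812) and all 10 of its treated libraries under the Control median. The endothelial list (5 of 5 genes) had medians of 63.2 and 58.1, with 9 of 10 treated libraries under the Control median. The B cell list had medians of 2.33 and 2.18, and the eosinophil and mast cell list 8.05 and 8.06. The summed levels of all these lists overlapped between the groups. The hepatocyte list also peaked in Control 3, at 40.3, of which Cyp2e1 made up 38.8. Alb, Apoa1, Fgb and Ttr lay under the filter, and Ttr was listed at 0 in all libraries. The part of these cells in the Ido1 difference was not tested.

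Within a group, Ido1 was set against 16 other genes over the 10 libraries of each group, 32 relations in all, with two-sided permutation tests of 100000 resamples and Benjamini-Hochberg adjustment. In P.T.ATBx, Ido1 went with Cxcl9, an interferon-gamma-inducible chemokine (Pearson r = 0.822, p = 0.00211, adjusted p = 0.0338). The rank relation was of like size (Spearman rho = 0.855, adjusted p = 0.0506), and r was 0.767 without P.T.ATBx 1 and P.T.ATBx 2, the 2 libraries farthest from the Cxcl9 median. This relation no longer passed when P.T.ATBx 2, 4, 5, 6, 9 or 10 alone was left out, with r from 0.715 to 0.837. Ifng (r = 0.694), Irf1 (r = 0.741), Cd274, which encodes the checkpoint ligand PD-L1 (r = 0.759), and Cd8a (r = 0.734) had adjusted p-values from 0.0896 to 0.0942. In Control, r was -0.0738 for Cxcl9 (adjusted p = 0.932), -0.119 for Irf1, -0.059 for Cd274 and -0.335 for Cd8a. The relation with Ifng there was -0.00121 (p = 0.997). It ran from -0.436 to 0.495 with each Control library left out, the latter without Control 3. In a limma fit of slopes on Ido1, chosen after the data were seen, none of these genes differed between groups past the threshold. The adjusted p over all rows ran from 0.373 for Cd8a to 0.764 for Ifng and was 0.442 for Cxcl9. The Control slope of Cxcl9 was -0.0805. It was 0.578 without Control 3 and -0.526 without Control 2, so its sign depended on single libraries.

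None of the pathway's own genes passed the threshold. In P.T.ATBx, r with Ido1 was 0.619 for Haao (adjusted p = 0.179), 0.517 for Kynu (adjusted p = 0.304) and 0.447 for Wars (adjusted p = 0.388). It was 0.37 for Afmid and 0.16 for Kmo. In Control, it was -0.509 for Haao (adjusted p = 0.304), -0.463 for Afmid, -0.198 for Kynu, 0.269 for Kmo and 0.325 for Wars. For Haao, whose relation had opposite signs in the groups, the difference of slopes was 0.531 (p = 0.00987, adjusted p = 0.371 over all rows, limma).

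**Figure D3:**
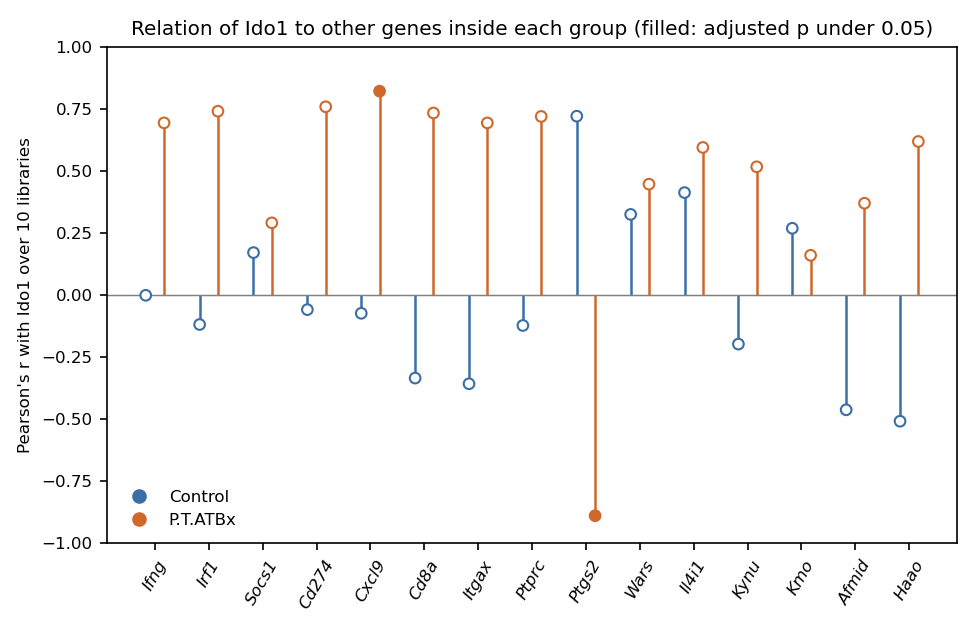
Pearson r between Ido1 and each gene shown, on the log2(FPKM + 1) scale, computed separately over the 10 Control and the 10 P.T.ATBx libraries. Ptgs2 has the widest gap, at 0.721 in Control and -0.890 in P.T.ATBx.

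Ptgs2, the inducible cyclooxygenase that makes prostaglandin E2, an agent known to induce Ido1 in dendritic cells, differed between the groups by less than its spread. It had 10.3 ± 2.27 and 9.95 ± 2.07 FPKM in Control and treated tumours (SD, n = 10 each; adjusted p = 0.895). Its relation to Ido1 was negative in P.T.ATBx (r = -0.890, p = 0.00052, adjusted p = 0.0166) and likewise by rank (rho = -0.927, adjusted p = 0.00896). There r was -0.748 without the 2 libraries farthest from the Ptgs2 median, P.T.ATBx 2 and P.T.ATBx 8, and -0.787 without P.T.ATBx 2 alone, where it no longer passed. In Control it was positive without passing the threshold (r = 0.721, p = 0.0185, adjusted p = 0.0908), and r was 0.541 without Control 1 and Control 3. The slopes on Ido1, 0.385 (SE 0.102) and -0.340 (SE 0.0819), differed by -0.725 (SE 0.13, p = 1.95e-05), with an adjusted p of 0.0572 over all 12787 rows in a limma fit chosen after the data were seen, in which 0.0156% of rows passed. With each library left out, the difference of slopes ran from -0.857 to -0.613, and its adjusted p from 0.0115 to 0.999. Without Control 3 the difference was -0.613 (adjusted p = 0.999), and without P.T.ATBx 2 it was -0.635 (adjusted p = 0.762).

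**Figure D4:**
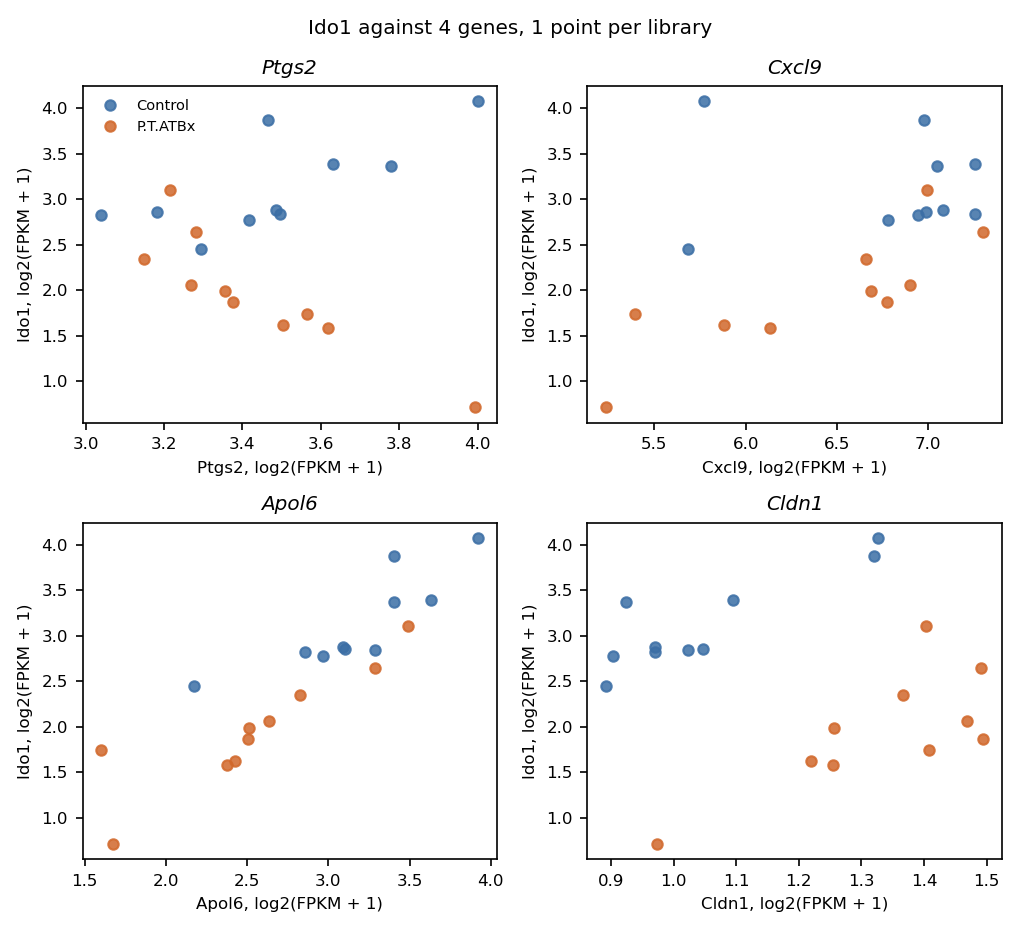
Ido1 against Ptgs2, Cxcl9, Apol6 and Cldn1, each point 1 library on the log2(FPKM + 1) scale, by group. Ptgs2 runs downward with Ido1 in P.T.ATBx (r = -0.890) and upward in Control (r = 0.721), and Control 3 is the Control library of highest Ido1.

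Ido1 was also set against marker lists, each as the mean log2(FPKM + 1) of its genes past the filter, not the sum. This family of 12 was added after the data were seen and tested by permutation. Ido1 in P.T.ATBx went with the T cell list (r = 0.862, adjusted p = 0.0135) and the macrophage list (r = 0.833, adjusted p = 0.0135). The conventional dendritic cell list had r = 0.767 (adjusted p = 0.0452), but its rank relation did not pass (rho = 0.600, adjusted p = 0.291). Without the 2 libraries farthest from each list's median, P.T.ATBx 2 among them each time, r was 0.708, 0.615 and 0.595. In Control, none of the lists passed the threshold, and the largest r was 0.613 for the epithelial list (adjusted p = 0.18). Whether the groups differ in these list relations was not tested.

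The genes whose pattern was most like that of Ido1 were named by Pearson's r over all 20 libraries after each group's mean was taken off, given as a description. Apol6, an apolipoprotein L family gene, came first with r = 0.873, and 0.855 without Control 3. It was followed by the tight junction gene Cldn1 (0.795), Hspa12a (0.792), Gpr146 (0.791) and Ppfibp2 (0.780). Of the genes set against Ido1 before, Cxcl9 was over all 20 libraries at rank 670 of the 12787 rows ranked (r = 0.466). Wars was at 1181 (0.391) and Ifng at 1941 (0.295). That order rested in part on Control 3. Without it, r was 0.736 for Cxcl9, close to Cldn1 at 0.753 (then at rank 11) and Hspa12a at 0.748 (then at rank 14), and above Tnfrsf21 at 0.713 (then at rank 37). For Ifng it was 0.566, and for Wars 0.463. Apol6 had means of 8.51 ± 2.93 and 5.24 ± 2.59 FPKM in Control and treated tumours (SD, n = 10 each), a difference of -0.65 (adjusted p = 0.203). Cldn1 had means of 1.08 ± 0.24 and 1.53 ± 0.269 FPKM, a difference of opposite sign to that of Ido1 (adjusted p = 0.0604).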

How the data were processed

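RNA from 20 MC38 tumours was extracted with a column kit and made into stranded total RNA libraries, per the labels' protocols. The authors deposited 1 table of FPKM for all libraries, and the submitters' processing notes name mm10. Which aligner, quantifier and annotation were used is not given in the sources used here, and read counts are unknown. FPKM was analysed as log2(FPKM + 1), with rows of mean FPKM of at least 0.5, in limma 3.58.1 (R 4.3.3) with 10 Control against 10 P.T.ATBx libraries. Benjamini-Hochberg adjustment ran over all rows tested, and the threshold was 0.05. The test was tried on simulated data first. Gene spans come from RefSeq (GRCm38.p6, matched by Entrez number) unless GENCODE M21 is named. Within-group relations used permutation tests of 100000 resamples. The genes named include all 9 members, some of the genes of each list with the smallest p-values, genes of the within-group relations, and those most like Ido1 by r. 1 gene counted in the lists and relations is not reported here by name. The members and lists were chosen with earlier results of these data known. Alternatives were other pseudocounts, filters and scalings, array weights, a replicate block and leaving out libraries.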

Additional observations from a re-analysis of the deposited data

Results flagged for a closer look

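In 2 of the 18 sets of 10 libraries examined (9 genes in 2 groups), 1 library stood far from the others, its gap to the nearest library being more than 0.466 of the whole range. For normally distributed values, chance alone gives about 1 such set in 20. That rate does not hold for Tdo2, which was 0 in 6 Control libraries. Tdo2 in Control 3 was 0.307 FPKM, with a gap of 0.864 of the range. That library was also the highest Control library for Ido1 and for the epithelial and hepatocyte marker lists, the last mostly through Cyp2e1. Kmo in P.T.ATBx 1 was 1.95 FPKM, with a gap of 0.589 of the range, in 1 of the 4 libraries of highest summed FPKM. The part of these library features in the values was not tested.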

How the results depend on the processing

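Of 12788 rows, 108 were called. The count was 49 on the TPM scale (20 higher, 29 lower), 306 with array weights (154 higher, 152 lower) and 67 without the 4 libraries of highest summed FPKM, a choice made after seeing the data. With 1 library left out it was lowest, 69, without P.T.ATBx 4 and highest, 193, without Control 1. The number of members called, 1, was 0 on the TPM scale and without those 4 libraries, and 0 to 1 with each library left out. The Ido1 difference kept its sign, from -1.29 to -1.03 with each library left out. The count of pathway genes called, 0, was 1 with array weights (Ccbl2) and 0 to 2 with each library left out (Socs1 and Tnf without Control 2). The count of within-group relations past the threshold, 2, was 0 without the 2 farthest libraries. With 1 library left out it was lowest, 0, without P.T.ATBx 2 and highest, 4, without P.T.ATBx 7. The Kynu difference changed sign: it was -0.0247 without the 4 libraries and ran from -0.0489 to 0.0468 with each library left out. In Control, the relation of Ido1 with Ifng was 0.0216 with a pseudocount of 0.1, 0.0534 on the TPM scale, 0.162 without the 2 farthest libraries and -0.436 to 0.495 with each library left out. That with Wars was -0.334 without the 2 farthest libraries and 0.0626 to 0.519 with each library left out. The cause of these changes was not tested. Replicate numbers are shared by the groups. Libraries of the same number had correlations from -0.315 to 0.393, with a median of 0.0804, and 5 of 10 pairs were over 0.1. Of the Control libraries, 3 correlated best with their own number. Whether the numbers pair the libraries was not tested. With the replicate block, 124 rows were called, Ido1 among them (-1.16). Kynu has no value with a filter at a mean of 1 FPKM.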

Other observations

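In a limma fit of every row on Ido1, chosen after the data were seen, 0 of 12787 rows had a slope past an adjusted p of 0.05 within Control or within P.T.ATBx. At an unadjusted p under 0.05 there were 814 positive and 463 negative slopes in Control, and 819 positive and 485 negative slopes in P.T.ATBx. The slopes differed between the groups for 2 rows (0.0156%). Spp1, which encodes the secreted phosphoprotein osteopontin, had slopes of 0.388 in Control and -0.367 in P.T.ATBx (difference -0.755, SE 0.119, adjusted p = 0.0454). Vgll3, a transcription cofactor, had slopes of 0.399 and -0.124 (difference -0.523, SE 0.0872, adjusted p = 0.047). These calls held in 9 and 5 of the 20 fits that left out 1 library. Without Control 3 the difference of Spp1 was -0.65, with an adjusted p of 0.963.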
